A study of Homo sapiens with 4 samples.

Results

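The genes described here build and run the mitotic apparatus: the kinetochore, which ties each chromosome to spindle microtubules, the checkpoint that watches this attachment, the spindle itself, and the machinery of chromosome condensation, anaphase and cytokinesis. Their transcripts are scarce in resting cells and build up in G2 and mitosis, mostly under the B-MYB, FOXM1 and DREAM regulators. In a bulk sample, fewer cells on the way to division and less of the RNA in each cell cannot be told apart. A fixed list of 51 genes was used (kinesins named KIF left out), and a gene was taken when a row of the deposited table carried its symbol alone. This gave 50 genes, each with a single row, out of 22085 genes with such a row and 67539 transcript clusters in all. The BUB1B row carries several symbols, and BUB1B is not reported here.

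The data come from TC-71, an established Ewing sarcoma (EWS) cell line, on 4 whole-transcript arrays. Replicates C and D held RNA of TC-71 cells given exosomes (EXOs) of CD99-silenced cells (labelled TC-71 + TC-CD99neg EXOs, here exposed cells), at 10 µg per 5000 cells for 24 h without serum, and replicates A and B held RNA of TC-71 cells given no EXOs (untreated cells). The methods describe seeding of 500000 cells in complete medium, name stably silenced TC-71 cells as the EXO donors, and give no medium for the untreated arrays. No arm with other EXOs was analysed here, so the arrival of EXOs, their CD99neg origin and any difference in serum cannot be told apart. The submitters call the arrays biological replicates, and nothing says how the cultures were kept apart, so the p-values measure the spread between these arrays only. The 8 EWS markers looked at (CD99, NKX2-2, CCND1 and others) had mean log2 signals between 6.60 and 11.11, all above the median of all clusters, whereas the leukocyte, epithelial and endothelial markers lay between 4.51 and 5.88. The 5 fibroblast markers lay between 4.92 and 7.38, and their summed log2 level was 29.3 and 29.3 in exposed cells, against 28.5 and 28.4 in untreated cells. DCN was higher at the adjusted p alone, with 5.83 and 5.94 in exposed cells, against 5.39 and 5.35 in untreated cells (0.52, adjusted p = 0.012 from limma), and LUM had both exposed arrays above both untreated ones without passing (0.27, adjusted p = 0.113). No fibroblast marker reached the fold of 1.5 used below, and their part in the results was not tested. Of the EWS markers, NR0B1 was lower (log2 difference -0.62, adjusted p = 0.0137 from limma) and PAX7 higher (0.63, adjusted p = 0.0118), both beyond that fold.

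Some of these transcripts fell after exposure to the EXOs, and most did not pass the test. Of the 50 genes, 6 fell by a fold of at least 1.5 at an adjusted p of at most 0.05 from limma (CENPE, PBK, CEP55, ASPM, HMMR and DLGAP5) and 0 rose. These thresholds were passed as lower by 1.04% of all clusters and 0.964% of all genes with 1 symbol, and as higher by 1.54% and 1.13%. At an unadjusted p under 0.05, 37 of the genes were lower and 1 was higher, and 14978 of the 67539 clusters passed in either direction. At the adjusted p alone, whatever the fold, 21 of the 50 were lower and 1 (SPC24) was higher. The background at that threshold was 4.28% lower and 5.42% higher for clusters, and 6.98% lower and 5.84% higher for genes.

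Both exposed arrays lay below both untreated arrays in 41 of the 50 genes, against 19.9% of clusters and 26.6% of genes, and above them in 2 (SPC24 and CENPN), against 28.0% and 25.9%. The other 7 genes overlapped between the groups. The median of the 50 log2 differences (exposed minus untreated) was -0.33, and that of all genes with 1 symbol was 0.00. The changes were mostly modest: CENPE alone reached a fold of 2, and the other 5 called genes lay between 1.502-fold and 1.83-fold lower.

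The genes were bright on the arrays, with a median signal of 8.20 in exposed cells and 8.49 in untreated cells, against 6.39 in both groups over all genes with 1 symbol. Among the 11281 genes at least as bright as the dimmest of the 50, 12.0% were lower at the adjusted p alone and 37.0% had both exposed arrays below both untreated ones. These shares were 42.0% and 82.0% in the 50.

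**Figure D1:**
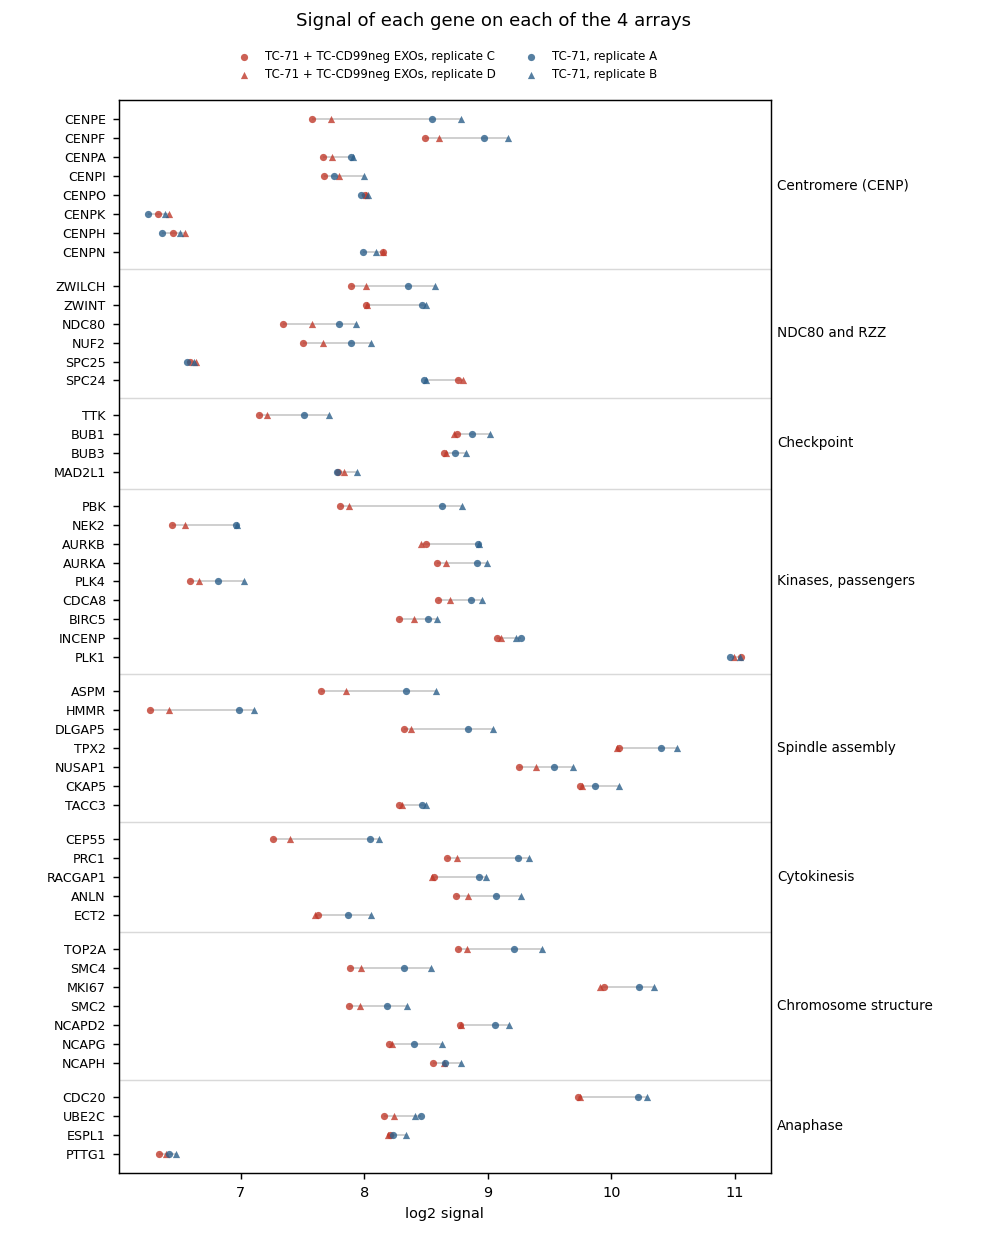
Log2 signal (x axis) of each of the 50 genes (y axis, grouped by role) on each array, with exposed replicates in red, untreated replicates in blue and a grey line over the whole range. The red points lie left of the blue ones in 41 genes and right of them in SPC24 and CENPN.

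The arrays of a group were not level for these genes. Of the untreated arrays, replicate B was above replicate A in 48 of the 50, by a median of 0.13, although B was above A in only 42.4% of all genes with 1 symbol. Of the exposed arrays, D was above C in 41 of the 50, by a median of 0.07, against 46.8% of all genes with 1 symbol. The differences between groups were larger than this: the median of C minus A was -0.28, of C minus B -0.42, of D minus A -0.22 and of D minus B -0.37. Against replicate A, the lower of the untreated arrays for these genes, 42 of the 50 were lower in C and 41 in D. Of all genes with 1 symbol, 45.5% were higher in C than in A and 39.3% higher in D than in A.

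The size of the fall moved with single arrays. The median of the 50 log2 differences was -0.26 without untreated replicate B and -0.41 without replicate A. It was -0.29 without exposed replicate C and -0.34 without D. The medians over all clusters in these fits were -0.006, 0.028, 0.004 and 0.014, in the same order. A group left with a lone array has no spread of its own, so these fits cannot decide whether a call holds. Over these fits the log2 difference of CENPE lay between -1.13 and -0.90. Those of PBK and CEP55 lay between -0.95 and -0.79 and between -0.83 and -0.68. Those of ASPM and HMMR lay between -0.825 and -0.59 and between -0.78 and -0.63. DLGAP5 lay between -0.69 and -0.49, on both sides of the fold of 1.5. SPC24 stayed higher, between 0.27 and 0.31. What set B apart from A was not tested.

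**Figure D2:**
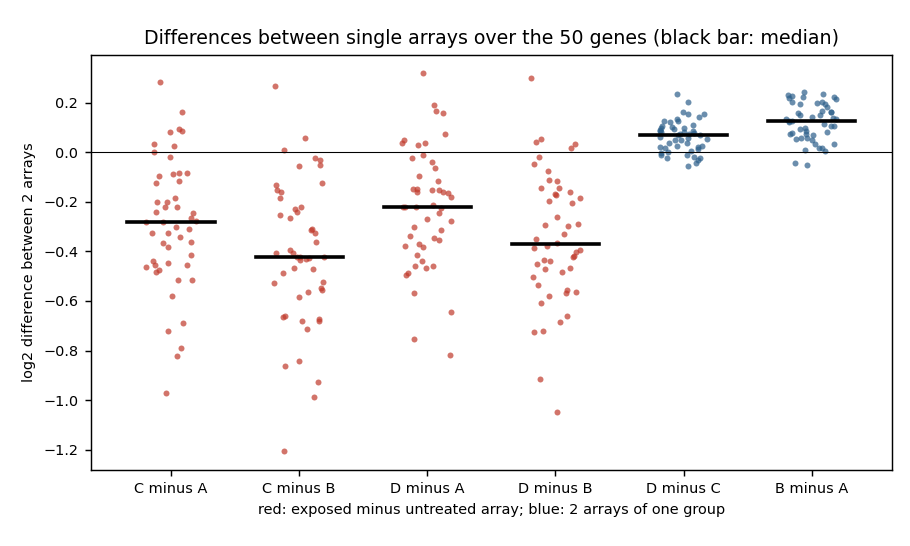
Log2 difference between 2 single arrays (y axis) for each of the 50 genes, as points with a black bar at the median. The 4 red columns set an exposed array against an untreated one and have medians between -0.42 and -0.22, and the blue columns set the arrays of a group against each other and have medians of 0.07 (D minus C) and 0.13 (B minus A).

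CENPE, a kinetochore motor that carries chromosomes to the middle of the spindle, had the largest fall of the list. Its signal was 7.58 and 7.73 in exposed cells, against 8.55 and 8.78 in untreated cells, and the groups lay far apart relative to the steps within them. The log2 difference was -1.01 (standard error 0.10, adjusted p = 0.0113 from limma), or 2.01-fold lower. PBK, a serine/threonine kinase active in mitosis, had 7.81 and 7.88 in exposed cells, against 8.63 and 8.79 in untreated cells. Its log2 difference was -0.87 (standard error 0.07, adjusted p = 0.00796 from limma), again with a wide gap between the groups.

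CEP55, which brings the abscission machinery to the midbody at the end of cytokinesis, had 7.26 and 7.40 in exposed cells, against 8.05 and 8.12 in untreated cells (log2 difference -0.75, standard error 0.06, adjusted p = 0.00894 from limma). ASPM, a spindle pole protein whose loss causes microcephaly in humans, had 7.65 and 7.85 in exposed cells, against 8.34 and 8.58 in untreated cells (-0.71, standard error 0.11, adjusted p = 0.028). ASPM had the widest spread within the groups of the 6 genes. HMMR, the hyaluronan-mediated motility receptor, which also binds spindle microtubules, was the dimmest of them, with 6.27 and 6.42 in exposed cells, against 6.99 and 7.11 in untreated cells (-0.70, standard error 0.07, adjusted p = 0.0127). DLGAP5, which stabilizes kinetochore microtubules, had 8.32 and 8.38 in exposed cells, against 8.84 and 9.04 in untreated cells (-0.59, standard error 0.08, adjusted p = 0.0197). DLGAP5 sat just inside the fold threshold at 1.502-fold lower, and PRC1 lay just outside it at 1.495-fold.

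**Figure D3:**
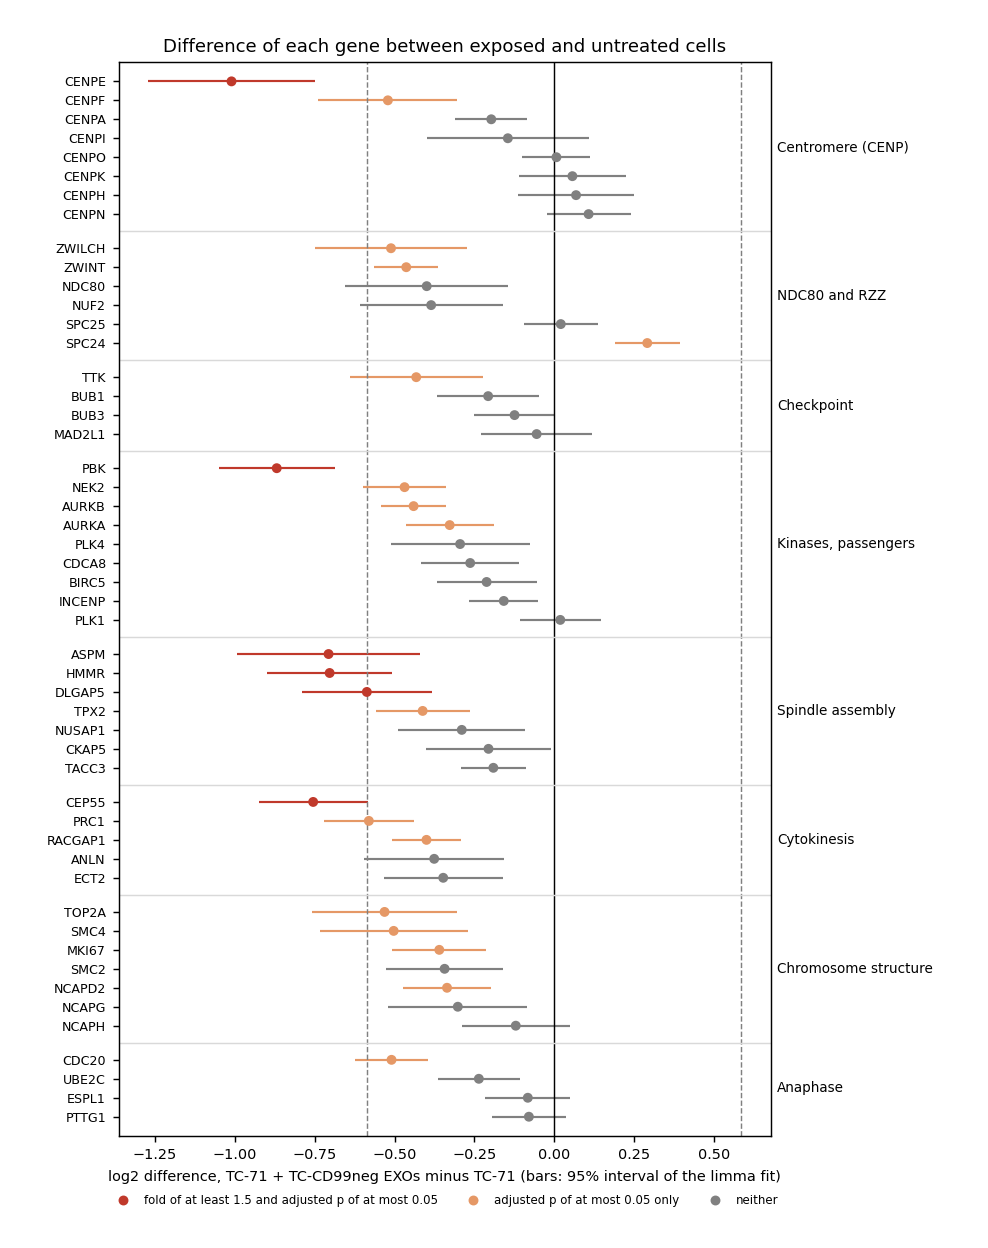
Log2 difference (x axis, exposed minus untreated) of each gene with its 95% interval from the limma fit, grouped by role, with dashed lines at a fold of 1.5. The 6 called genes are dark red, those that passed the adjusted p alone are orange and the others are grey, and SPC24 is the only orange point right of 0.

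Genes of this kind are known to share a cell cycle homology region (CHR) near the transcription start, bound by the DREAM and MuvB complexes, and CCAAT boxes upstream, bound by NF-Y. RefSeq promoter windows (GRCh38.p14, 250 bases before to 50 after the start) were found for 41 of the 50 genes, 7 of them with several windows. The CHR was searched as TTTGAA or TTCGAA and the CCAAT box as CCAAT, each on both strands. A CHR was found for 31 of the 41 genes (75.6%), against 19.5% of all 27305 genes of the table, and a CCAAT box for 31 (75.6%), against 39.7%. By window, a CHR stood in 67.3% of the 49 windows of these genes and in 16.4% of all 35116 windows, and both motifs together in 49.0% and 6.38%. An E2F-like GCGGGAA, searched on both strands, was found for 5 of the 41 genes (12.2%), against 7.82% of all. In 2 places a CHR match and a CCAAT match share bases, and GCGGGAA shares none with either. With a site that lies in several windows of a gene counted once, the genes held 44 CHR matches, and 33 began within 100 bases of a start. A match is a run of letters and not a binding site.

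The windows of the called genes are shown to set these letters beside the falls, followed by those of PLK1 and SPC24, which did not fall. Each is given 5′ to 3′ on the gene's strand, with the CHR and CCAAT matches of either strand in capitals. PBK is named only.
CENPE promoter (chr4:103198294-103198593, - strand): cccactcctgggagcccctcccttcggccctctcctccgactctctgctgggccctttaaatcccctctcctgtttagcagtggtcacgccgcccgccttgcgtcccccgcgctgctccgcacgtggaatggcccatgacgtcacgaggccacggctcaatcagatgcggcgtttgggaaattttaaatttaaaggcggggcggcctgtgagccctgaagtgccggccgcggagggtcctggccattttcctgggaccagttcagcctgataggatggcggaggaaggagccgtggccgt
CEP55 promoter (chr10:93496362-93496661, + strand): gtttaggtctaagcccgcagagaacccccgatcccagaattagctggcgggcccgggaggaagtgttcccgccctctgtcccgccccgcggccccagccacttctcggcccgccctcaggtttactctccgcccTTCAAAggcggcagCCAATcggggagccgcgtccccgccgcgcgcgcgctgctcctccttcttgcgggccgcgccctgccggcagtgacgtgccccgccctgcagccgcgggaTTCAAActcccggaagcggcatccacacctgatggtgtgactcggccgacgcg
ASPM promoter (chr1:197146620-197146919, - strand): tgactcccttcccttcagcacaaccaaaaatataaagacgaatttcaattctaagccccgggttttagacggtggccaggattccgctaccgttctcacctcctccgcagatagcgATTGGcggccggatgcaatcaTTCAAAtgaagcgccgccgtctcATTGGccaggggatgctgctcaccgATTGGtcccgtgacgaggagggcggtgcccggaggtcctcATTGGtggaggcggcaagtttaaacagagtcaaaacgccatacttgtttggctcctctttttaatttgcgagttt
HMMR promoter (chr5:163460382-163460681, + strand): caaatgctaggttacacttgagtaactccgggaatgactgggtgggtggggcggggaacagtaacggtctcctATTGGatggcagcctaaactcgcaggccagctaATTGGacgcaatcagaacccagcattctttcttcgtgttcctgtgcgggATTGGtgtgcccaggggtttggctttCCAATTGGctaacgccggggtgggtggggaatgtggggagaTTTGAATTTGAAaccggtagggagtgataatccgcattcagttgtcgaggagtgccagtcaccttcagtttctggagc
DLGAP5 promoter (chr14:55191536-55191835, - strand): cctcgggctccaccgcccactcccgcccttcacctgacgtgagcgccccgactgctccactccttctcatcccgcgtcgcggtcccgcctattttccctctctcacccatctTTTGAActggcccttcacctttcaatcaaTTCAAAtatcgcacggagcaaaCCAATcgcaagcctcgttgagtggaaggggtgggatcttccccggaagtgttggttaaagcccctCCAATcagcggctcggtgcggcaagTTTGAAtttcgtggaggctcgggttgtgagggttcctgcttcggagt
PLK1 promoter (chr16:23678639-23678938, + strand): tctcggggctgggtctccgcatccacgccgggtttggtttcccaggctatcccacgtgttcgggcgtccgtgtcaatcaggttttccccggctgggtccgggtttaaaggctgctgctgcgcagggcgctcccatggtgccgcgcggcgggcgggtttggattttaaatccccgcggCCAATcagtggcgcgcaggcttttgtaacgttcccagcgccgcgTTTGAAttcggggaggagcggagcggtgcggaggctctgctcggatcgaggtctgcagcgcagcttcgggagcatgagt
SPC24 promoter (chr19:11155733-11156032, - strand): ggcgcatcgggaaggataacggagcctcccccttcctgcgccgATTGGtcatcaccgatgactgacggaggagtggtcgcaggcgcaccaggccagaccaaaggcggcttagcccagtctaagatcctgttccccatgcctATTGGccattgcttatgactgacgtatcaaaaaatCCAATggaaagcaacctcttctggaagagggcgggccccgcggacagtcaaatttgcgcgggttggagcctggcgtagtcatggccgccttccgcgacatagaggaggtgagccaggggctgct
Counted from the start, the CHR matches of HMMR begin at -28 and -22, side by side, and those of DLGAP5 at -138, -109 and 4. The windows of CEP55 and ASPM also hold both motifs. The CENPE window, of the gene with the largest fall, holds neither, which says only that these letters are not in this window. PLK1 holds a CHR at -29 and a CCAAT box at -73, and its signal overlapped between the groups. SPC24 holds CCAAT boxes and no CHR.

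A CHR was about as common among the genes lower at the adjusted p as among those that did not pass as lower. Of the 16 genes with a window that were lower at the adjusted p alone, 12 (75.0%) held a CHR, and of the other 25 with a window 19 (76.0%) did. For the CCAAT box the counts were 14 (87.5%) and 17 (68.0%). The other 25 include genes, such as ANLN and NDC80, with both exposed arrays below both untreated ones. In 8 genes with a window, the exposed arrays did not both lie below the untreated ones. Of these 8, 5 (62.5%) held a CHR and 6 (75.0%) a CCAAT box. These shares describe the windows and were not tested.

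**Figure D4:**
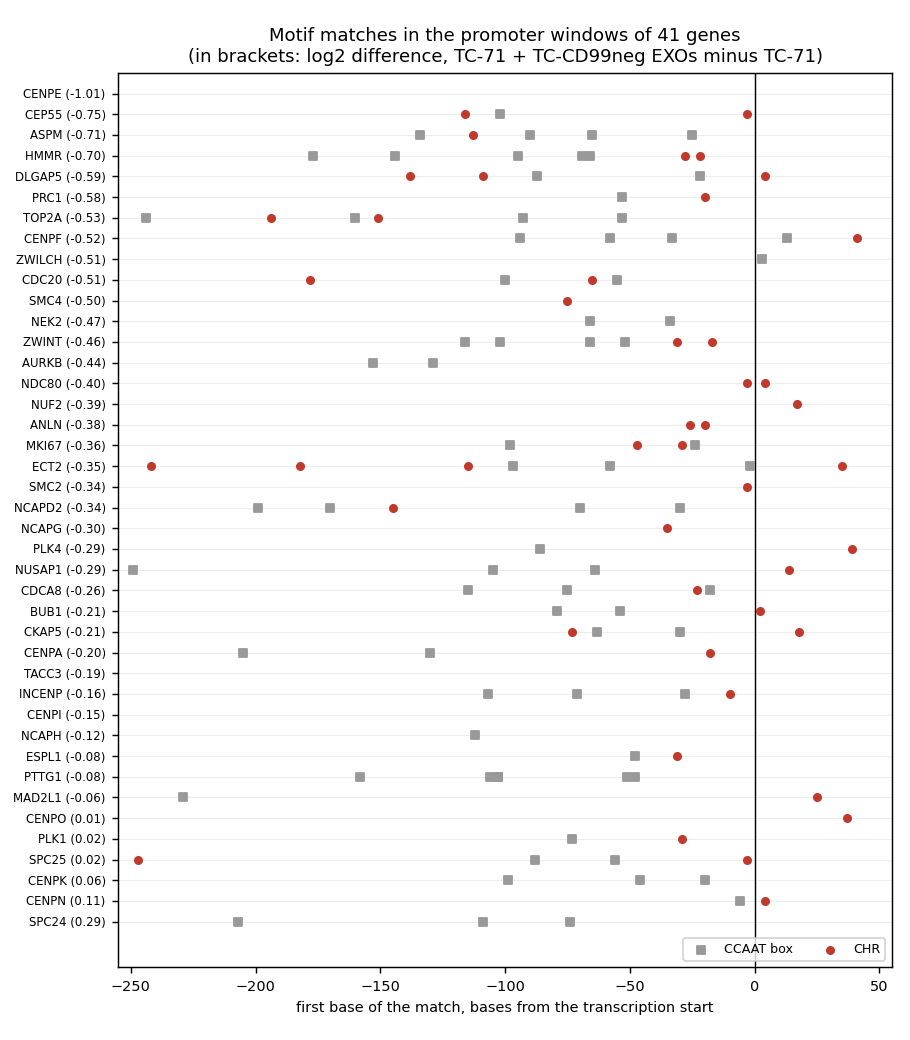
First base of each CHR match (red circles) and CCAAT match (grey squares) in bases from the transcription start (x axis), for the 41 genes with a RefSeq window, with the most negative log2 difference at the top; genes with several windows show the matches of each, so a site in 2 windows appears at 2 distances. Red circles stand in 31 of the 41 rows, in lower rows as well as in upper ones.

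Among the centromere proteins, CENPE stood beside genes with smaller differences. CENPF, a large coiled-coil protein of the outer kinetochore, had 8.49 and 8.60 in exposed cells, against 8.97 and 9.17 in untreated cells (log2 difference -0.52, adjusted p = 0.0299 from limma), below the fold of 1.5. CENPA, the histone H3 variant that marks the centromere, had 7.67 and 7.74 in exposed cells, against 7.89 and 7.91 in untreated cells, and missed the adjusted p (-0.20, adjusted p = 0.0645). CENPH, CENPI, CENPK, CENPN and CENPO belong to the network that stays on the centromere through the cell cycle. Their log2 differences lay between -0.15 and 0.11, and none passed the adjusted p. CENPO, the gene nearest to no difference, had 8.01 and 8.01 in exposed cells, against 7.98 and 8.03 in untreated cells, with a 95% interval of the difference from -0.10 to 0.11, whereas that of CENPE ran from -1.27 to -0.75.

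The NDC80 complex, the main microtubule coupler of the kinetochore, showed no common direction. NDC80 had 7.35 and 7.58 in exposed cells, against 7.79 and 7.93 in untreated cells, and NUF2, its partner in the microtubule-binding head, had 7.51 and 7.67 in exposed cells, against 7.89 and 8.06 in untreated cells. Neither overlapped between the groups, and neither passed the adjusted p (log2 differences -0.40 and -0.39, adjusted p = 0.0828 and 0.0657 from limma). SPC24 and SPC25 form the end of the complex that docks on the kinetochore. SPC24 had 8.76 and 8.80 in exposed cells, against 8.48 and 8.50 in untreated cells, and was higher at the adjusted p alone (0.29, adjusted p = 0.0197 from limma), a fold of 1.22. SPC25 had 6.59 and 6.64 in exposed cells, against 6.57 and 6.62 in untreated cells, and overlapped.

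ZWINT, which helps to anchor RZZ, a complex that brings dynein to the kinetochore, had 8.01 and 8.03 in exposed cells, against 8.47 and 8.50 in untreated cells (log2 difference -0.46, adjusted p = 0.00826 from limma). ZWILCH, a subunit of RZZ, had 7.89 and 8.02 in exposed cells, against 8.36 and 8.58 in untreated cells (-0.51, adjusted p = 0.0389). Both were lower at the adjusted p and below the fold of 1.5. KNTC1, the ROD subunit of RZZ, which is not among the 50 genes, had 8.13 and 8.23 in exposed cells, against 8.45 and 8.69 in untreated cells, and did not pass (-0.39, adjusted p = 0.0814).

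Of the checkpoint genes, TTK, the MPS1 kinase that starts the signal at unattached kinetochores, was lower at the adjusted p alone, with 7.15 and 7.21 in exposed cells, against 7.51 and 7.72 in untreated cells (log2 difference -0.43, adjusted p = 0.0419 from limma). BUB1, a kinase that recruits other checkpoint proteins, had 8.75 and 8.73 in exposed cells, against 8.87 and 9.02 in untreated cells (-0.21, adjusted p = 0.128). BUB3 and MAD2L1, which help to form the inhibitor of the anaphase-promoting complex, had log2 differences of -0.12 and -0.06. BUB1, BUB3 and MAD2L1 did not pass, and MAD2L1 overlapped between the groups.

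Among the mitotic kinases, the Aurora kinases were lower and PLK1 was near level. AURKB, the kinase of the chromosomal passenger complex, had 8.50 and 8.46 in exposed cells, against 8.92 and 8.93 in untreated cells (log2 difference -0.44, adjusted p = 0.00958 from limma). NEK2, a kinase of centrosome separation, had 6.45 and 6.55 in exposed cells, against 6.96 and 6.97 in untreated cells (-0.47, adjusted p = 0.0127). AURKA, the kinase of the spindle poles, had a log2 difference of -0.33 and also passed the adjusted p (0.0304). None of these reached the fold of 1.5. The other passenger subunits CDCA8 (borealin), BIRC5 (survivin) and INCENP had -0.26, -0.21 and -0.16 and did not pass, nor did PLK4, the kinase of centriole duplication, with -0.29. PLK1, a kinase that acts through all of mitosis and the brightest gene of the list, had 11.05 and 10.99 in exposed cells, against 10.96 and 11.04 in untreated cells, and the 95% interval of its difference ran from -0.11 to 0.15.

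All 7 spindle assembly genes had both exposed arrays below both untreated ones, against 26.6% of all genes and 37.0% of those at least as bright as the dimmest of the 50, and 3 of the 7 (ASPM, HMMR and DLGAP5) were called, against 0.964% of all genes. TPX2, which activates AURKA and nucleates microtubules around chromosomes, had 10.06 and 10.05 in exposed cells, against 10.40 and 10.53 in untreated cells, and was lower at the adjusted p alone (log2 difference -0.41, adjusted p = 0.0209 from limma). NUSAP1, a microtubule bundler, had 9.26 and 9.39 in exposed cells, against 9.54 and 9.69 in untreated cells, and did not pass (-0.29, adjusted p = 0.0987). CKAP5, a microtubule polymerase, and TACC3, which holds it on the spindle, had -0.21 and -0.19 and did not pass either.

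The 5 cytokinesis genes had no overlap between the groups (both exposed arrays lower, against 26.6% of all genes), with a median log2 difference of -0.40. Beside CEP55, PRC1, which bundles the microtubules of the central spindle, had 8.67 and 8.75 in exposed cells, against 9.25 and 9.33 in untreated cells (log2 difference -0.58, adjusted p = 0.0101 from limma). RACGAP1, a subunit of centralspindlin, had 8.56 and 8.55 in exposed cells, against 8.93 and 8.99 in untreated cells (-0.40, adjusted p = 0.0122). Both were lower at the adjusted p alone. ANLN (anillin), a scaffold of the contractile ring, and ECT2, the exchange factor that switches on RhoA there, had -0.38 and -0.35 and missed the adjusted p (0.066 and 0.0544).

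Of the chromosome structure genes, TOP2A, the topoisomerase that disentangles sister chromatids, had 8.76 and 8.83 in exposed cells, against 9.21 and 9.44 in untreated cells (log2 difference -0.53, adjusted p = 0.0316 from limma). SMC4, a core ATPase of condensin, had 7.88 and 7.98 in exposed cells, against 8.32 and 8.54 in untreated cells (-0.50, adjusted p = 0.0374). In both, untreated replicate B stood well above A. MKI67, which encodes the Ki-67 antigen of dividing cells, had 9.94 and 9.91 in exposed cells, against 10.22 and 10.35 in untreated cells, and was 1.28-fold lower (-0.36, adjusted p = 0.0285). The condensin subunit NCAPD2 had -0.34 and also passed the adjusted p, and the condensin genes SMC2, NCAPG and NCAPH had -0.34, -0.30 and -0.12 without passing. None of the 7 genes reached the fold of 1.5, and all had both exposed arrays below both untreated ones, against 26.6% of all genes.

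Of the anaphase genes, CDC20, the activator of the anaphase-promoting complex (APC/C), had 9.73 and 9.75 in exposed cells, against 10.21 and 10.29 in untreated cells, and was lower at the adjusted p alone (log2 difference -0.51, adjusted p = 0.009 from limma). UBE2C, the ubiquitin-conjugating enzyme of that complex, had 8.16 and 8.24 in exposed cells, against 8.46 and 8.41 in untreated cells (-0.24, adjusted p = 0.0556). ESPL1 (separase), the protease that opens cohesin, and PTTG1 (securin), its inhibitor, each had -0.08, with adjusted p of 0.484 and 0.431. UBE2C, ESPL1 and PTTG1 did not pass, and all 4 had both exposed arrays below both untreated ones, against 26.6% of all genes.

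The rest of the mitotic apparatus was looked at through lists of other genes. Of 82 measured genes of other kinetochore, spindle, centrosome, cytokinesis, cohesin, condensin and APC/C proteins, 1 was called lower and 0 higher, and 17 were lower and 4 higher at the adjusted p alone, with a median log2 difference of -0.18. The call is 1.22% of the list, near the 0.964% of all genes with 1 symbol. At the adjusted p alone, 20.7% of the list was lower, against 6.98% of all genes and 12.0% of the brightness-matched background. Both exposed arrays lay below both untreated ones in 68.3% of the list, against 26.6% and 37.0%, and above them in 10 genes. The called one was PDS5B, a cohesin regulator, with 8.22 and 8.26 in exposed cells, against 8.78 and 9.01 in untreated cells (-0.66, adjusted p = 0.0191 from limma). KNL1, the kinetochore scaffold that recruits BUB1, and ZW10, another RZZ subunit, had the largest differences of the other kinetochore genes, -0.47 and -0.45, and CKAP2 and DEPDC1 those of the other spindle and cytokinesis genes, -0.56 and -0.54. All 4 passed the adjusted p and not the fold. The genes that were higher at the adjusted p alone were CENPM of the centromere network (0.39), CLASP2, a microtubule stabilizer (0.41), NUMA1, a spindle pole protein (0.32), and NCAPH2, a condensin subunit (0.23).

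Of 12 mitotic kinesins, 2 were called lower and 6, those included, were lower at the adjusted p alone, against 0.964% and 6.98% of all genes, with a median log2 difference of -0.31. KIF14, a motor of the central spindle, had 7.05 and 7.24 in exposed cells, against 8.07 and 8.33 in untreated cells (-1.05, adjusted p = 0.0131 from limma), and KIF20B, which acts in abscission, had -0.71 (adjusted p = 0.0206). Of 9 G2/M cyclins and CDK regulators, 4 (44.4%) were lower at the adjusted p alone, against 6.98% of all genes. None of the 9 reached the fold of 1.5 as well. The 4 lower ones were CCNB1 (cyclin B1) with -0.53, CCNF (cyclin F) with -0.38, the phosphatase CDC25B with -0.32 and CDKN3 with -0.29. The median of the list was -0.29.

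Replication and G1/S genes lay nearer to 0, and none of them or of the tubulin and actin genes was called. Of 29, 5 were lower (MCM10, PCNA, MCM7, FEN1 and CDC45) and 1 (UHRF1) was higher at the adjusted p alone, with a median log2 difference of -0.08. The lower ones are 17.2% of the list, against 6.98% of all genes and 12.0% of those at least as bright as the dimmest of the 50. As higher, 5.84% of all genes passed. MCM10, a replication initiation factor, and MCM6, a helicase subunit that did not pass, had the largest differences, -0.57 and -0.41. Of 14 tubulin, actin, myosin and related genes, of which RHOA, MYH9 and MYH10 also serve in the contractile ring, 2 were lower (MYH10 with -0.33, MAP1B with -0.29) and 1 was higher (MAP4 with 0.40) at the adjusted p alone, with a median of -0.10. The lower ones are 14.3% of that list. Both exposed arrays lay below both untreated ones in 51.7% of the replication list and 57.1% of the tubulin and actin list. The background was 26.6% of all genes and 37.0% of those at least as bright as the dimmest of the 50. Both exposed arrays lay above both untreated ones in 9 replication genes and 1 tubulin or actin gene, against 25.9% of all genes. The differences between these lists and the 50 genes were not tested.

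**Figure D5:**
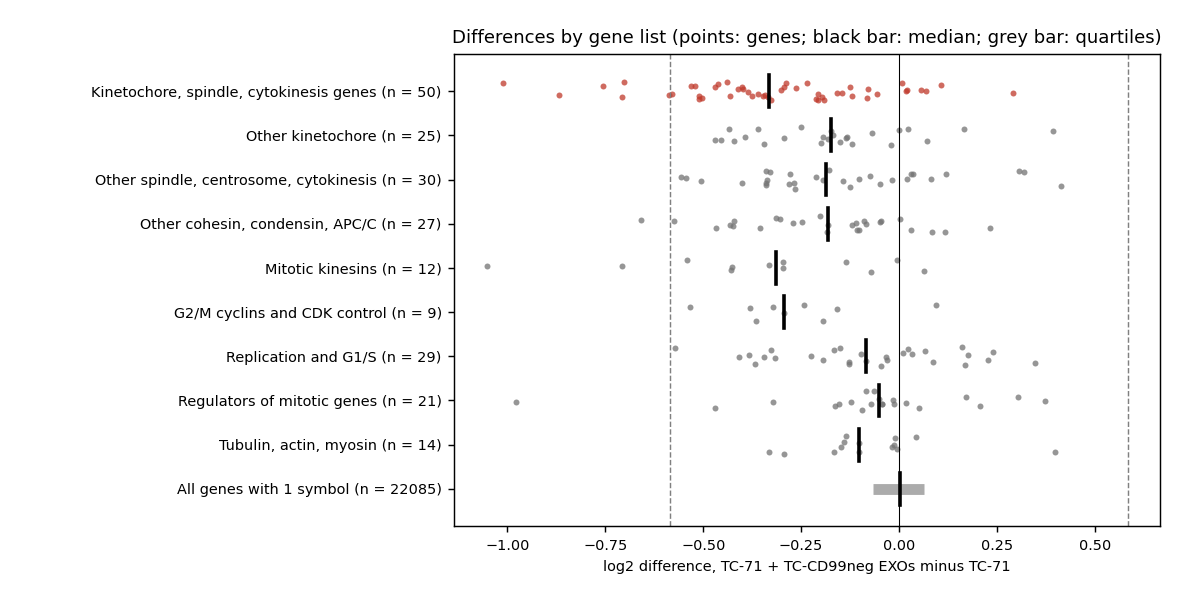
Log2 difference (x axis, exposed minus untreated) of each of the 50 genes (red) and of the lists of other genes (grey points), with a black bar at each median and, for all genes with 1 symbol, a grey bar between the quartiles. The medians are -0.33 for the 50 genes, -0.31 for the mitotic kinesins, -0.29 for G2/M cyclins and CDK control, and -0.08 for replication and G1/S genes.

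The transcripts of the regulators of these genes did not move as a group. FOXM1, a forkhead activator of G2/M genes, had 9.40 and 9.38 in exposed cells, against 9.40 and 9.49 in untreated cells, and overlapped. MYBL2, which encodes B-MYB, had 10.63 and 10.54 in exposed cells, against 10.52 and 10.54 in untreated cells, and LIN9, a MuvB subunit, had 6.70 and 6.78 in exposed cells, against 6.78 and 6.89 in untreated cells. None of the 3 passed (log2 differences -0.05, 0.05 and -0.10, adjusted p = 0.717, 0.69 and 0.479 from limma). CDKN1A, the p21 inhibitor of CDKs through which p53 lowers mitotic genes, had 6.94 and 6.95 in exposed cells, against 7.01 and 6.91 in untreated cells, and overlapped as well (-0.02, adjusted p = 0.946).

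Over the 21 regulators measured, 2 were lower (MYBL1 and RB1) and 3 higher (E2F4, TFDP2 and NFYC) at the adjusted p alone, with a median log2 difference of -0.05. The lower ones are 9.52% of the list, near the 6.98% of all genes. As higher, 5.84% of all genes passed. MYBL1, which encodes A-MYB, a relative of B-MYB, was the only called one, with 6.09 and 6.28 in exposed cells, against 7.08 and 7.24 in untreated cells (-0.98, adjusted p = 0.0102 from limma). E2F4, a repressor within DREAM, had 9.06 and 9.00 in exposed cells, against 8.65 and 8.67 in untreated cells (0.37, adjusted p = 0.0144). The retinoblastoma gene RB1 had -0.47, the E2F partner TFDP2 0.30 and the NF-Y subunit NFYC 0.21. RBL1, the p107 pocket protein of DREAM, had 7.70 and 7.76 in exposed cells, against 7.94 and 8.16 in untreated cells, and did not pass (-0.32, adjusted p = 0.0986). These are transcript levels, and the activity of the proteins was not measured.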

How the data were processed

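Values of 4 arrays were used, 2 of TC-71 + TC-CD99neg EXOs and 2 of TC-71. The authors summarized the array files with ExonRMA16 in GeneSpring, applied quantile normalization with no baseline transformation, and deposited log2 values, used here as they stand. Quantile normalization gives all arrays like distributions, so a shift of all genes would not show. The genome build of the probes is not given in the sources used here. Clusters were named from GEO's platform annotation, which gives 23383 of them 1 symbol, 1225 several and 42931 none. A gene with several rows was taken by its brightest row. In the lists of other genes and regulators, 167 of 178 genes had a row, 7 of them under an older symbol.

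Differences between exposed and untreated cells went through the two-sided test of limma 3.58.1 (linear model, then eBayes) in R 4.3.3, with Benjamini-Hochberg adjustment over all 67539 clusters, 2 residual degrees of freedom and a prior worth 2.59. Called genes had a 1.5-fold or larger difference together with an adjusted p no higher than 0.05. The code was checked on simulated arrays. Arrays have no read depth, and their number limits the precision.

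The 50 genes, the other lists and the tests were chosen with earlier results of these data known. By rule, values per array are given for called genes, for the 2 other genes of each role group with the largest difference, for the 3 genes nearest to no difference and for FOXM1, MYBL2, LIN9, RBL1, E2F4 and CDKN1A. Of each list of other genes, the called genes or else the 2 with the largest difference are named. Values per array of NDC80, NUF2, SPC24, MKI67, KNTC1 and DCN and the promoters of PLK1 and SPC24 were chosen after values were seen. So were the background of genes at least as bright as the dimmest of the 50 and other genes named from the lists. Planned protein lengths were not analysed here. Alternatives covered the variance model, the scale between arrays, filters on dim, unnamed or identical clusters, the thresholds, and each array left out in turn.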

Additional observations from a re-analysis of the deposited data

How the results depend on the processing

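With 2 arrays a group the tests rest on few degrees of freedom, and without limma's moderation the called clusters, the genes called lower and the genes passing the adjusted p alone in either direction were 0, with 22 of the 50 lower and 1 higher at an unadjusted p under 0.05. At that unadjusted p, 10368 of the 67539 clusters passed in either direction. At a fold of 2, 421 of the 1746 clusters and 1 of the 6 genes (CENPE) were called. At an adjusted p of 0.01 these were 920 and 2 (CEP55 and PBK), and 5 genes were lower and 0 higher at the adjusted p alone. With clusters of exactly 1 symbol, 491 were called. Quantile normalization once more and cyclic loess left 5 genes called (not DLGAP5), and centring on the median or on reference genes gave 7 (PRC1 added). The other alternatives to the fit kept the same 6. Genes lower at the adjusted p alone numbered 19 to 31 over the alternatives of scale, filter and variance prior. Centring on reference genes gave 30 of these. In that fit the adjusted p of CENPE from limma was 1.9e-25, against 0.0113 in the main fit, at log2 differences of -1.02 and -1.01. Its p-values and counts are therefore not comparable with those of the main fit. Genes with both exposed arrays above both untreated ones numbered 1 with median centring and 3 with quantile normalization once more. The filter on a mean under 4 removed no cluster, and each gene had 1 row, so averaging rows changed nothing.

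Leaving out each array in turn gave 3 to 9 genes called lower, 8 to 19 lower and 0 higher at the adjusted p alone, 2 to 8 with both exposed arrays higher, 41 to 44 with both lower, and medians between -0.41 and -0.26. A lone array of a group is assumed there to vary like the other group. The counts with both exposed arrays higher or lower compare only the arrays that remain in each of these fits. Leaving out an array can only keep or add genes without overlap. These counts therefore could not fall below the 41 lower and 2 higher of the main fit, and they say nothing on stability. The sign turned in 6 genes near 0, none of which passed: CENPO (-0.0362 with median centring, -0.0049 with reference genes, -0.0198 to 0.0335 over the left-out arrays), SPC25 (-0.0225 with median centring, -0.0153 with quantile normalization once more, -0.0085 to 0.0497), PLK1 (-0.0241 with median centring, -0.0196 to 0.0576), CENPH (-0.0062 to 0.143), CENPK (-0.0098 to 0.124) and MAD2L1 (-0.135 to 0.0251). The cause was not tested. No paired analysis was possible because the groups share no replicate letters.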

Other observations

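Across the 50 genes, the difference between the untreated arrays (B minus A) went with genomic length, with a Spearman correlation of 0.68 and a Pearson correlation of 0.64. The same for the exposed arrays (D minus C) was 0.28 and 0.23, and for the log2 difference of exposed minus untreated -0.27 and -0.26. These are descriptions over genes measured on the same 4 arrays, which are not independent replicates. The median genomic length (RefSeq) was 38.0 kb in the 6 called genes, 29.8 kb in the 15 others lower at the adjusted p alone and 28.9 kb in the other 29.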
